A study of Oncorhynchus mykiss with 15 samples.

Results

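Liver transcriptomes of rainbow trout (Oncorhynchus mykiss) labelled H24h were compared with those labelled N, across all genes of the deposited table, with 3 libraries on each side out of 15 in the series. The series followed the liver under low oxygen for different durations and sequenced total RNA from 5 groups of 3 libraries: N, H3h, H12h, H24h and R3h. All fish are given as 150 days old, and no strain, sex, oxygen level or genotype is given for any group. The labels do not spell out N, H or R, the time at which N was sampled is not given, so treatment and elapsed time cannot be told apart, and nothing says that the libraries of a group came from separate fish. The p-values below therefore measure the spread between these libraries, which may be technical.

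When oxygen falls, prolyl hydroxylases lose activity and hypoxia-inducible factors (HIF) accumulate, which in vertebrates drives genes for glycolysis, erythropoiesis and growth restraint. Among the HIF targets are the hydroxylase EGLN3, the growth-factor carrier IGFBP1 and the mTOR inhibitor DDIT4. The liver also makes plasma proteins and bile acids, clears drugs and oxidises amino acids, and it carries blood cells within its vessels. Trout genes often exist as several copies left by genome duplication, so reads of near-identical copies can be shared and the value of a single copy is uncertain.

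Before any gene, 2 properties of these 6 libraries need stating, because they touch every value below. N replicate 2 correlated less with N replicate 1 (Pearson's r = 0.818, log2 CPM) and with N replicate 3 (r = 0.898) than N replicates 1 and 3 did with each other (r = 0.925), while its r with the H24h libraries was 0.897, 0.901 and 0.887. The difference between the groups also moved with gene length: the median log2 fold change was 0.29 in the shortest and -0.30 in the longest of 5 equal classes of gene length. Levels relative to each gene's mean over 15 libraries correlated with gene length at Spearman's rho of 0.13, 0.12 and 0.18 in N. In H24h replicates 1, 2 and 3 the values were 0.09, -0.28 and -0.29, so replicate 1 lay near N. Most list medians are therefore given with all 6 libraries, and also without N replicate 2 or with the length trend removed. Totals ranged from 45364029 to 65414268 counts per library.

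With edgeR's quasi-likelihood test on the 6 libraries, 0 of 17502 genes tested (0%) passed a Benjamini-Hochberg adjusted p under 0.05, and the smallest adjusted p was 0.068; DESeq2 on the same libraries called 2459. At an unadjusted p under 0.05 there were 4497 genes, of which 2130 (12.2%) were higher in H24h and 2367 (13.5%) were lower. Estimating the spread over 12 libraries, N, H3h, H12h and H24h together, edgeR called 436 genes higher (2.49%) and 435 lower (2.49%), and 834 of these 871 genes, themselves 4.98% of those tested, had FPKM values that did not overlap between N and H24h. Over all genes FPKM did not overlap in 8.08% with H24h higher and in 19.4% with H24h lower, or in 14.7% and 17.2% after TMM scaling. Those calls depended on single libraries: edgeR on the same groups called 1015 without H24h replicate 1, 0 without N replicate 1, without N replicate 3 or without H24h replicate 2, 41 without H24h replicate 3, and 2410 without N replicate 2. On the 6 libraries without N replicate 2, edgeR called 919 genes higher (5.25%) and 1038 lower (5.93%). The main test was that of 6 libraries, and the 12-library fit was an alternative to it. With the spread of all 15 libraries, the other alternative, edgeR called 35 of the 17502 genes tested, 22 higher and 13 lower. In what follows "higher" and "lower" describe the measured values, and each test is named where a gene passed it. FPKM values, fragments scaled by gene length and library total, are the authors' per-length levels. Log2 fold changes are from edgeR on the counts, H24h minus N. Values after ± are standard errors back-calculated from each log2 fold change and its test statistic.

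**Figure D1:**
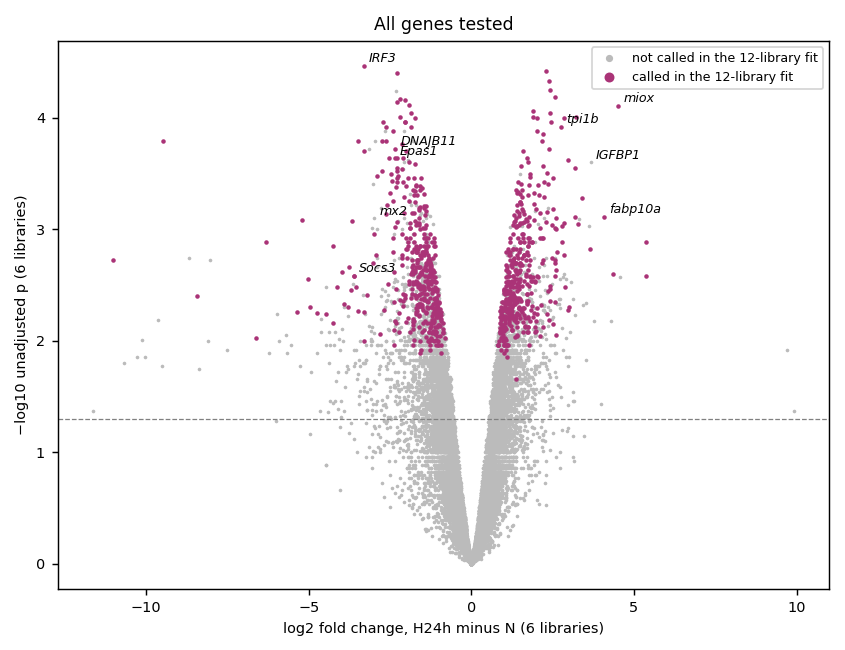
The points are the 17502 genes tested, with the log2 fold change of H24h minus N on the x axis and −log10 of the unadjusted edgeR p on the y axis; the dashed line marks the 0.05 level. The 871 genes called in the 12-library fit, in purple, lie at high and low fold changes alike, with miox and fabp10a on the right and IRF3 and Socs3 on the left; the labelled IGFBP1 and mx2 were not called there.

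Among named genes with a mean of at least 5 FPKM in the higher group, 6 were chosen by smallest p on the higher side and 5 on the lower side, all without overlap between the groups by the rule that chose them. Higher in H24h were miox, which encodes inositol oxygenase of inositol breakdown, Tsc22d3, a glucocorticoid-induced regulator, and pno1 and rsl24d1, which encode ribosome assembly factors. Lower in H24h were IRF3 and Irf8, which encode interferon regulatory factors, EIF2AK2, the double-stranded-RNA sensor kinase PKR, and psmg2, a proteasome assembly chaperone. The 11 genes of this set reported here shared an adjusted p of 0.068 in edgeR on 6 libraries. In the 12-library fit 10 of them passed and EIF2AK2 did not (edgeR adjusted p = 0.085). That fit holds the same N and H24h libraries that chose these genes, so passing it is not independent evidence.

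The gene miox (110496439, chromosome 2, 60522911 to 60526069 in the deposited coordinates) stood at 4.15, 14.1 and 11.2 FPKM in the N libraries and at 188, 150 and 233 FPKM in the H24h libraries. The groups did not overlap and N replicate 1 was the lowest. The log2 fold change was 4.52 ± 0.60, with an unadjusted p of 7.8e-05 in edgeR, and an adjusted p of 0.017 in edgeR's 12-library fit.

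IRF3 (100750228, chromosome 1, 33298521 to 33308691) stood at 78.4, 40.8 and 60.8 FPKM in N and at 3.40, 3.21 and 7.84 FPKM in H24h. Every H24h library lay below the lowest N library, which was replicate 2. Its log2 fold change of -3.31 ± 0.39 had the smallest unadjusted p of the named genes, 3.4e-05 in edgeR, and an adjusted p of 0.017 in edgeR's 12-library fit.

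Tsc22d3 (110504506) stood at 6.59, 4.63 and 4.57 FPKM in N and at 22.5, 14.7 and 24.7 FPKM in H24h, a log2 fold change of 2.29 ± 0.27. A second copy (110489223) ran from 1.86 to 3.32 FPKM in N and from 8.35 to 34.8 FPKM in H24h, so neither copy overlapped. The glucocorticoid response list as a whole did not move with them. Its median log2 fold change was -0.09 over 32 tested, with 5 higher and 3 lower at an unadjusted p under 0.05 in edgeR. Left-out libraries moved that median from -0.32 to 0.48. Of the ribosome assembly genes, pno1 gave 35.5, 22.9 and 37.8 FPKM in N and 155, 83.2 and 172 FPKM in H24h, and rsl24d1 had a log2 fold change of 1.90 ± 0.26. The other members of the set were bbip1, a subunit of the BBSome that traffics ciliary proteins (log2 fold change 2.39 ± 0.29), dapl1-a, named after a death-associated protein (1.91 ± 0.26), and CNP, a cyclic-nucleotide phosphodiesterase gene (-1.87 ± 0.25).

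**Figure D2:**
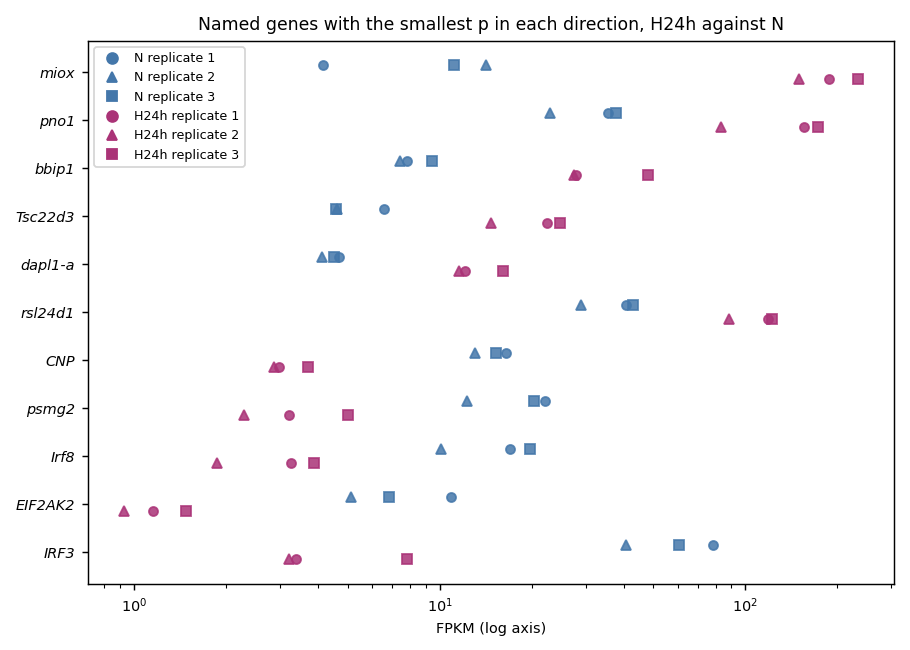
FPKM on a log axis for the 11 named genes chosen by smallest edgeR p, 6 higher and 5 lower in H24h, with N libraries in blue and H24h libraries in purple and 1 symbol shape per replicate. The 3 N points and the 3 H24h points of each gene do not overlap, which the choice of genes required; IRF3 lies between 40.8 and 78.4 FPKM in N and between 3.21 and 7.84 FPKM in H24h.

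Interferon pathway genes were the immune list with the most low members. Of 68 tested, 61 had negative log2 fold changes, 33 were lower and 2 higher at an unadjusted p under 0.05 in edgeR, and the median log2 fold change was -1.01, beside -0.02 over all genes. The median was -1.18 without N replicate 2 and -1.12 with the length trend removed. IRF3 was the 1 member of the 68 that passed in the 12-library fit, a smaller share than the 2.49% called lower over all genes. On the 6 libraries without N replicate 2, edgeR called 17 lower, beside 5.93% over all genes. The antiviral GTPase gene mx2 (100137062) stood at 35.6, 10.6 and 28.7 FPKM in N and at 1.07, 2.87 and 2.83 FPKM in H24h, without overlap (log2 fold change -2.98 ± 0.56).

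Inflammatory cytokine and NF-kB genes had a median log2 fold change of -0.91 over 35 tested, with 31 negative and 8 lower against 0 higher at an unadjusted p under 0.05 in edgeR. The 12-library fit called 0 of them higher and 2 lower. The median was -1.09 without N replicate 2, -0.71 with the length trend removed and -0.35 without N replicate 1. In 3 of the 35 genes FPKM did not overlap with H24h lower, a smaller share than the 19.4% over all genes, and the summed FPKM of the list overlapped, at 681, 118 and 246 in N and 165, 141 and 138 in H24h. The cytokine signalling inhibitor Socs3 (110499415) stood at 27.2, 1.68 and 11.1 FPKM in N and at 0.80, 0.38 and 1.28 FPKM in H24h. The groups did not overlap, but N replicate 2 lay close to H24h and N replicate 1 far above. The metalloreductase gene STEAP4 (100136336), from the iron handling list, gave 719, 301 and 345 FPKM in N and 41.5, 94.2 and 59.7 FPKM in H24h. Socs3 and this STEAP4 copy, picked for small p in the same libraries, passed in the 12-library fit (edgeR adjusted p of 0.035 and 0.042). A second STEAP4 copy (110486049) gave 300, 63.5 and 108 FPKM in N and 13.1, 25.3 and 30.9 FPKM in H24h. It did not pass there (edgeR adjusted p of 0.07).

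Of the white-cell marker lists, the neutrophil list was mostly negative, with 8 of 9 tested, while the lymphocyte list was split and macrophage markers had a median log2 fold change of 0.45. The 14 neutrophil markers summed to 336, 14.9 and 103 FPKM in N and to 24, 18.9 and 23.7 FPKM in H24h, with 2 to 4 members at 0 in each library, and the group ranges overlapped because of N replicate 2. MMP9, the gelatinase of neutrophil granules, was at 193, 0.31 and 22.0 FPKM in N and at 0.36, 0.10 and 1.23 FPKM in H24h. The 13 lymphocyte markers summed to 22.3, 9.99 and 20.1 FPKM in N and to 9.77, 7.53 and 8.62 FPKM in H24h, with 1 or 2 members at 0, but 3 of the 7 tested were positive and 4 negative. The interleukin-7 receptor copy IL7R 110538260 gave 11.3, 2.60 and 5.45 FPKM in N and 2.53, 1.78 and 1.69 FPKM in H24h. The homing receptor gene CCR7 lay the other way, with a log2 fold change of 1.34 ± 0.47 and an adjusted p of 0.14 in edgeR. Their part in the immune values was not tested, and in bulk tissue fewer cells of a type and less RNA per cell cannot be told apart. Macrophage markers, 7 genes, summed to 79.1, 261 and 236 FPKM in N and to 349, 168 and 150 FPKM in H24h, which overlap.

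The protein-making lists split. Cytosolic ribosomal protein genes were higher: 171 of 181 tested had positive log2 fold changes, with 84 higher and 2 lower at an unadjusted p under 0.05 in edgeR, and 23 higher and 0 lower in the 12-library fit. Their median log2 fold change was 0.72, 0.92 without N replicate 2, and 0.43 with the length trend removed; their median length was 632 bases beside 2420 over all genes. The large-subunit gene rpl36a (110533861) stood at 78.5, 54.9 and 66.3 FPKM in N and at 183, 111 and 139 FPKM in H24h, without overlap.

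Aminoacyl-tRNA synthetase genes, whose products charge tRNAs with amino acids, were lower. Of 43 tested, 36 had negative values, 24 were lower and 2 higher at an unadjusted p under 0.05 in edgeR, and 10 were lower in the 12-library fit with 0 higher. The median log2 fold change was -1.02, -1.20 without N replicate 2 and -1.04 with the length trend removed. The glycyl-tRNA synthetase gene GARS (110536520) stood at 15.7, 8.94 and 15.3 FPKM in N and at 4.47, 3.13 and 5.42 FPKM in H24h. Of the cysteinyl-tRNA synthetase copies, cars 110526798 had a log2 fold change of -1.73 ± 0.31 and cars 110526805 one of -1.58 ± 0.30.

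Ribosome biogenesis genes, which process and assemble ribosomal RNA, had a median log2 fold change of -0.82 over 64 tested, with 23 lower and 1 higher at an unadjusted p under 0.05 in edgeR. The 12-library fit called 0 of them higher and 1 lower, beside 2.49% in each direction over all genes. The median was -1.05 without N replicate 2 and -0.74 with the length trend removed. So pno1 and rsl24d1, named above, lay opposite to most genes of this kind. POLR1B, a subunit of the polymerase that transcribes ribosomal RNA, stood at 2.16, 0.65 and 1.80 FPKM in N and at 0.36, 0.18 and 0.36 FPKM in H24h. Among 132 translation factor genes the median was -0.10, and 0.07 without N replicate 1, with 19 higher and 20 lower at an unadjusted p under 0.05. These shares were near the 12.2% higher and 13.5% lower over all genes. In this group eif4ebp3l, whose family binds the cap-binding protein and restrains translation, stood at 0.41, 0.54 and 0.91 FPKM in N and at 3.54, 5.02 and 5.20 FPKM in H24h. The scaffold initiation factor EIF4G1 (110504100) gave 10.8, 3.84 and 8.26 FPKM in N and 1.18, 0.73 and 1.45 FPKM in H24h. These 2 genes, picked for small p in the same libraries, did not overlap between the groups. Both passed in the 12-library fit (edgeR adjusted p of 0.044 and 0.025), where 8 genes of the list were higher and 6 lower. EIF2AK2, also among the members of smallest p, did not pass there (edgeR adjusted p of 0.085).

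Genes of protein folding and breakdown were mostly lower. In the unfolded protein and integrated stress response list, 62 of 83 tested had negative log2 fold changes, 27 were lower and 2 higher at an unadjusted p under 0.05 in edgeR, and the median was -0.53, -0.40 without N replicate 2 and -0.56 with the length trend removed. The 12-library fit called 0 of this list higher and 3 lower, beside 2.49% in each direction over all genes. The endoplasmic reticulum cochaperone gene DNAJB11 (110520234) stood at 27.0, 42.8 and 37.2 FPKM in N and at 5.89, 5.05 and 6.04 FPKM in H24h, where every H24h library lay below every N library. The most expressed copy of hspa5, the chaperone BiP, gave 420, 402 and 379 FPKM in N and 210, 127 and 164 FPKM in H24h. Proteasome genes had a median of -0.42 over 105 tested, with 23 lower and 3 higher; it was -0.60 without N replicate 2, -0.62 with the length trend removed and -0.19 without H24h replicate 1. Splicing factors had one of -0.28 over 207, with 41 lower and 7 higher, with left-out libraries moving it from -0.40 to -0.17, the latter without N replicate 1. The 12-library fit called 0 proteasome genes higher and 5 lower, and 1 splicing factor higher and 9 lower. The proteasome base subunit gene Psmd1 stood at 106, 20.9 and 83.6 FPKM in N and at 13.7, 8.09 and 17.8 FPKM in H24h, with N replicate 2 again nearest to H24h.

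**Figure D3:**
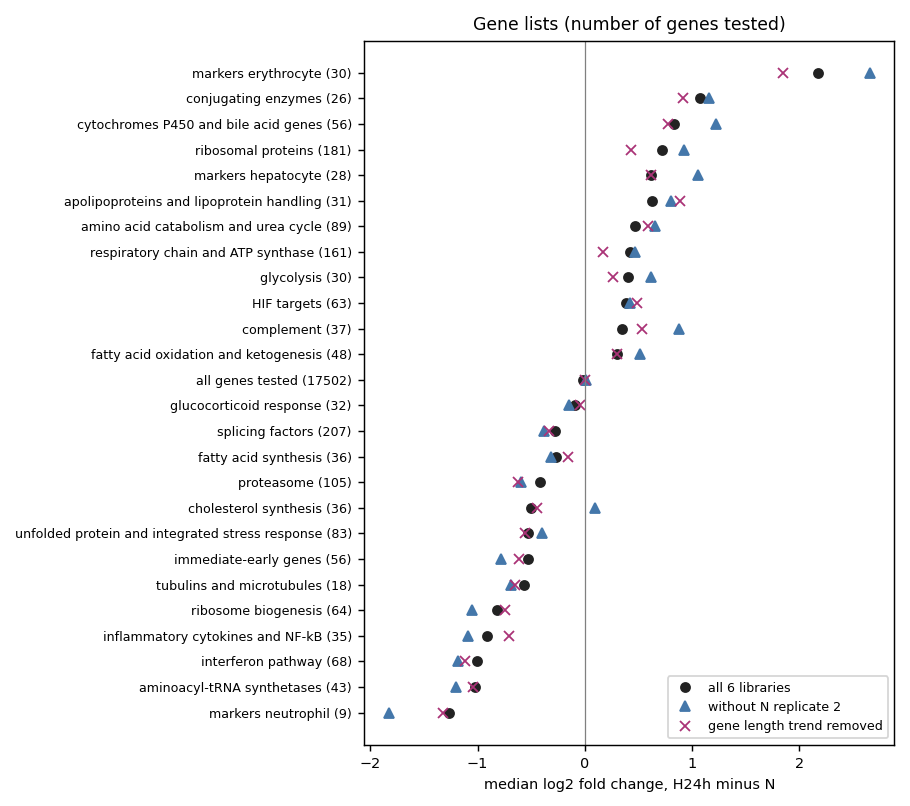
Median log2 fold change of H24h minus N for 26 rows, 1 per gene list plus all genes, with the number of genes tested in brackets; black circles use 6 libraries, blue triangles leave out N replicate 2 and purple crosses have the gene length trend removed. Aminoacyl-tRNA synthetases (-1.02) and interferon pathway genes (-1.01) lie low under all 3, ribosomal proteins (0.72) move to 0.43 when the trend is removed, and cholesterol synthesis genes (-0.50) move to 0.09 without N replicate 2.

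Genes of the pooled cytochrome P450 and bile acid list were mostly higher, and its bile acid members were not summarised on their own. Of 56 cytochrome P450 and bile acid genes tested, 46 had positive log2 fold changes, 24 were higher and 1 lower at an unadjusted p under 0.05 in edgeR, and 7 were higher and 1 lower in the 12-library fit. The median log2 fold change was 0.83, 1.22 without N replicate 2 and 0.77 with the length trend removed. CYP24A1, the hydroxylase that inactivates vitamin D hormone, stood at 30.2, 19.3 and 9.87 FPKM in N and at 207, 74.5 and 168 FPKM in H24h. The xenobiotic P450 gene cyp2k1 (110486989) gave 27.3, 42.2 and 39.0 FPKM in N and 126, 103 and 102 FPKM in H24h. Neither gene overlapped between the groups.

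Conjugating enzymes, which attach sulfate, glucuronate or glutathione, had a median log2 fold change of 1.07 over 26 tested, with 13 higher and 0 lower at an unadjusted p under 0.05 in edgeR. The median was 1.16 without N replicate 2 and 0.91 with the length trend removed. The sulfotransferase gene Sult2b1 stood at 6.96, 20.7 and 18.5 FPKM in N and at 48.0, 86.0 and 143 FPKM in H24h. The glucuronosyltransferase gene UGT2A1 had a log2 fold change of 2.57 ± 0.56. Both genes, picked for small p in the same libraries, passed in the 12-library fit (edgeR adjusted p of 0.036 and 0.040). In that fit the list had 2 members higher and 0 lower. Gstz1, also among the members of smallest p, did not pass (edgeR adjusted p of 0.11).

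Among lipid genes, the liver basic fatty acid binding protein gene fabp10a (110488894, chromosome 2, 21573377 to 21574722) stood at 17.1, 32.8 and 7.37 FPKM in N and at 512, 133 and 208 FPKM in H24h. The groups did not overlap, and the log2 fold change was 4.07 ± 0.76, with an adjusted p of 0.032 in edgeR's 12-library fit. Of 12 fatty acid binding protein genes tested, 4 were higher and 0 lower at an unadjusted p under 0.05. Their median log2 fold change was 0.37, 0.53 without N replicate 2 and 0.07 with the length trend removed. On the FPKM scale it was 0.03, where the median over all genes was -0.22. Of 36 fatty acid synthesis genes tested, 9 were lower and 1 higher at that level, with a median of -0.27, -0.32 without N replicate 2 and -0.16 with the length trend removed. Acly, the gene for ATP citrate lyase, which makes the acetyl-CoA for fatty acid synthesis, stood at 4.29, 1.85 and 1.45 FPKM in N and at 0.69, 0.50 and 0.46 FPKM in H24h.

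Copies of CPT1A, which carries fatty acids into mitochondria for oxidation, lay on opposite sides. Copy 100136831 stood at 5.91, 5.34 and 7.67 FPKM in N and at 23.8, 11.5 and 13.5 FPKM in H24h (log2 fold change 1.69 ± 0.32, edgeR adjusted p of 0.079). Copy 100653436 gave 7.72, 3.68 and 6.54 FPKM in N and 3.06, 1.13 and 1.83 FPKM in H24h (log2 fold change -1.24 ± 0.34, edgeR adjusted p of 0.10). The fatty acid oxidation and ketogenesis list as a whole had a median log2 fold change of 0.30, of 0.51 without N replicate 2, and of -0.01 on the FPKM scale, where the median over all genes was -0.22.

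Mitochondrial lists differed among themselves. Respiratory chain and ATP synthase genes had a median log2 fold change of 0.42 over 161 tested, with 52 higher and 2 lower at an unadjusted p under 0.05 in edgeR, and 15 higher and 0 lower in the 12-library fit. The median was 0.47 without N replicate 2 and 0.17 with the length trend removed. Tricarboxylic acid cycle genes gave 2 higher and 4 lower of 46, with a median of 0.15, and -0.03 without H24h replicate 1. Both shares were below the 12.2% higher and 13.5% lower over all genes. Mitochondrial ribosomal protein genes gave 14 higher, a share near that over all genes, and 3 lower of 89. They had a median of 0.32, and 0.04 with the length trend removed. On the FPKM scale their median was -0.05, beside -0.22 over all genes. Cox7b, a subunit of cytochrome c oxidase, stood at 47.0, 33.5 and 34.1 FPKM in N and at 82.3, 62.8 and 96.3 FPKM in H24h. Amino acid catabolism and urea cycle genes had a median of 0.47 over 89 tested, 0.65 without N replicate 2 and 0.59 with the length trend removed, with 25 higher and 3 lower, and MAT1A, the liver enzyme that makes S-adenosylmethionine, had a log2 fold change of 1.5 ± 0.29. MPC1 (110502720), a subunit of the carrier that brings pyruvate into mitochondria, gave 11.8, 14.2 and 18.5 FPKM in N and 49.0, 28.9 and 47.4 FPKM in H24h.

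HIF targets were mixed, with more higher than lower. Of 63 tested, 40 had positive log2 fold changes. At an unadjusted p under 0.05 in edgeR 18 were higher and 6 lower, beside 12.2% and 13.5% over all genes. The 12-library fit called 3 of them higher and 1 lower, beside 2.49% in each direction over all genes. The median was 0.38, 0.42 without N replicate 2 and 0.49 with the length trend removed. On the FPKM scale it was 0.01, where the median over all genes was -0.22. The glycolytic gene tpi1b (110517847), triosephosphate isomerase, stood at 10.4, 10.8 and 6.16 FPKM in N and at 41.6, 46.3 and 60.6 FPKM in H24h, without overlap. A second tpi1b copy (110489325) gave 25.5, 28.4 and 29.3 FPKM in N and 45.3, 35.7 and 54.8 FPKM in H24h. It rose less (log2 fold change 1.01 ± 0.28) and did not pass in the 12-library fit (edgeR adjusted p of 0.09). IGFBP1 gave 10.8, 6.63 and 4.95 FPKM in N and 146, 43.9 and 40.3 FPKM in H24h (log2 fold change 3.67 ± 0.58). The angiogenic growth factor gene vegfaa stood at 5.56, 3.57 and 5.98 FPKM in N and at 4.32, 4.50 and 6.76 FPKM in H24h, which overlap. Glycolysis genes as a list had a median of 0.40 over 30 tested, which was 0.62 without N replicate 2 and 0.26 with the length trend removed. Of these genes 3 were higher and 2 lower at that level, both shares below those over all genes.

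Genes of the oxygen-sensing machinery lay on both sides. Epas1 (110499310), which encodes HIF-2 alpha, stood at 52.0, 18.4 and 30.9 FPKM in N and at 6.49, 3.10 and 5.85 FPKM in H24h. The alpha subunit gene hif1a gave 23.5, 10.1 and 17.7 FPKM in N and 7.11, 4.39 and 6.80 FPKM in H24h. In contrast hif1an, which encodes the asparagine hydroxylase that inhibits HIF, stood at 4.79, 3.22 and 2.63 FPKM in N and at 6.85, 10.6 and 21.4 FPKM in H24h. None of these 3 genes overlapped between the groups, and all 3 passed in the 12-library fit, with edgeR adjusted p of 0.037, 0.044 and 0.039. Over all genes 4.98% passed there. Epas1 and hif1an had been picked for small p in the same N and H24h libraries, so their passing is not independent evidence. The Egln3 copy 110505778 was low, at 0.19, 0.26 and 0.28 FPKM in N and at 0.77, 0.62 and 1.56 FPKM in H24h. In H24h it also lay above N without overlap (log2 fold change 2.24 ± 0.42). This copy did not pass in the 12-library fit (edgeR adjusted p of 0.054). Of 18 genes tested in this list, 2 were higher and 3 lower at an unadjusted p under 0.05 in edgeR, beside 12.2% and 13.5% over all genes. The 2 higher genes were hif1an and this Egln3 copy. The Egln3 copy most expressed over the 15 libraries (110497687) was therefore not among them. The median log2 fold change of the list was -0.18, -0.11 without N replicate 2 and -0.07 with the length trend removed.

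Red-cell genes stood higher in H24h. Of 30 erythrocyte markers tested, 24 were higher and 0 lower at an unadjusted p under 0.05 in edgeR, and their median log2 fold change was 2.17, 2.66 without N replicate 2 and 1.85 with the length trend removed. The 12-library fit called 3 of them higher and 0 lower, beside 2.49% in each direction over all genes. The 34 markers summed to 321, 638 and 499 FPKM in N and to 810, 2310 and 2790 FPKM in H24h, with 1 to 6 members at 0 in each library. The alpha globin gene hba4 gave 79.2, 133 and 125 FPKM in N and 164, 542 and 644 FPKM in H24h. The haem synthesis gene alas2 stood at 2.19, 1.95 and 2.31 FPKM in N and 2.28, 4.69 and 9.52 FPKM in H24h. These overlap only narrowly, in deposited FPKM without TMM scaling. H24h replicate 1 was the lowest of its group for both. The part of red-cell RNA in the other lists was not tested.

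Hepatocyte markers were present in all 6 libraries, with 0 of 29 at 0, and summed to between 56100 and 64300 FPKM in N and between 53200 and 85000 FPKM in H24h, so the defining markers of liver tissue were there. Plasma protein genes did not move as one. C4bpa, named after a C4b-binding complement regulator, stood at 452, 837 and 538 FPKM in N and at 2343, 1536 and 1156 FPKM in H24h. The fibrinogen chain gene FGA gave 657, 681 and 894 FPKM in N and 230, 189 and 187 FPKM in H24h. The complement list had a median log2 fold change of 0.35 over 37 tested, which was 0.88 without N replicate 2 and 0.01 without H24h replicate 2. The acute-phase and coagulation list had one of 0.23 over 72, which was 0.58 without N replicate 2 and 0.09 without H24h replicate 2. On the FPKM scale the median of this list was -0.11, beside -0.22 over all genes.

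Among matrix genes COL6A1 (110535491), a collagen VI chain, was listed at 5.93, 2.01 and 2.47 FPKM in N and at 0 in all 3 H24h libraries, and it was also at 0 in every H3h, H12h and R3h library. Against a floor of 3 counts per library it was at least 35.6-fold lower in H24h than in N. COL6A1 entered the test through its N values alone, because the filter on low values used the mean FPKM over all libraries. Listed at 0 in every other library, it could only come out as lower in H24h. TIMP2, an inhibitor of matrix metalloproteinases, stood at 81.1, 74.8 and 86.3 FPKM in N and at 293, 301 and 269 FPKM in H24h, a log2 fold change of 2.21 ± 0.35 (edgeR adjusted p of 0.025 in the 12-library fit).

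**Figure D4:**
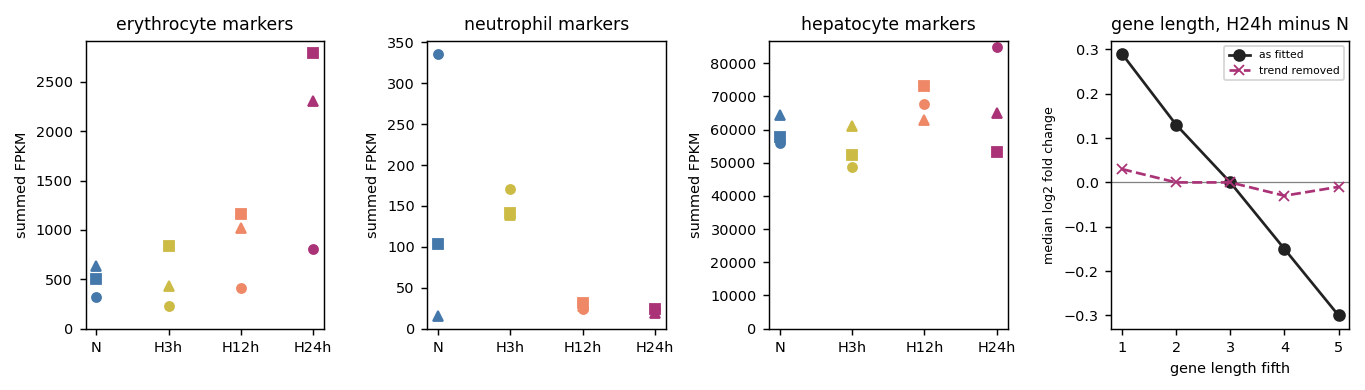
The first 3 panels give summed FPKM of erythrocyte, neutrophil and hepatocyte markers in each N, H3h, H12h and H24h library, with 1 symbol shape per replicate; the last gives the median log2 fold change of H24h minus N in 5 classes of gene length from short to long. Erythrocyte sums reach 2790 FPKM in H24h against at most 638 in N, neutrophil sums reach 336 in N against at most 24 in H24h, and the length medians run from 0.29 to -0.30 before the trend is removed.

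The same H24h libraries were set against the shorter H groups to see which differences were shared with earlier times. Against H3h, edgeR on 6 libraries called 1592 genes higher (9.10%) and 1650 lower (9.43%) in H24h, and 10 of the 11 lead genes were among them. The lead genes had been chosen with these same H24h libraries, so the 2 comparisons are not independent. Tsc22d3 was the exception, at 20.2, 27.8 and 39.0 FPKM in H3h (log2 fold change of H24h minus H3h -0.16 ± 0.35, edgeR adjusted p of 0.77). Relative to H3h, miox rose by 5.82 ± 0.51, fabp10a by 4.97 ± 0.59 and tpi1b (110517847) by 2.65 ± 0.35 on the log2 scale (edgeR adjusted p of 0.0062, 0.0070 and 0.0089). IRF3 fell by 3.17 ± 0.44 and Epas1 fell by 2.83 ± 0.50 (edgeR adjusted p of 0.0093 and 0.013). Of the lists, ribosomal proteins had 73 members higher and 1 lower than in H3h, cytochromes P450 and bile acid genes 26 higher and 0 lower, and interferon pathway genes 0 higher and 21 lower. Without H24h replicate 2 the H3h comparison gave 248 calls, without H3h replicate 1 it gave 981 and without H3h replicate 2 it gave 1246.

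Against H12h, edgeR called 1 gene higher (0.00571%) and 0 lower (0%) in H24h, with 3359 genes at an unadjusted p under 0.05 and 1444 called by DESeq2. The 1 gene was TBX3, a T-box transcription factor gene, named after its values were seen. It had counts of 1222, 851 and 1028 in H24h and 0 in all 3 H12h libraries, at least 325-fold higher against a floor of 3 counts per library (edgeR adjusted p of 0.0067). In N it had counts of 326, 0 and 698, so it was also listed at 0 in N replicate 2. TBX3 was not called when any H24h library was left out.

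HIF targets had a median log2 difference of -1.07 between H24h and H12h, and glucocorticoid response genes one of -1.75, but 0 members of either list passed in edgeR on 6 libraries. The Egln3 copy 110505778 stood at 0.19, 0.26 and 0.28 FPKM in N, at 15.9, 14.97 and 8.99 FPKM in H12h and at 0.77, 0.62 and 1.56 FPKM in H24h (H24h minus H12h -4.06 ± 0.45, edgeR adjusted p of 0.062). The most expressed ddit4 copy gave 271, 497 and 1.96 FPKM in H12h and 5.13, 1.37 and 2.53 FPKM in H24h, so H12h replicate 3 lay with H24h. PCK1, the first committed enzyme of gluconeogenesis, showed the same split, with 617, 801 and 11.5 FPKM in H12h and 12.9, 14.5 and 7.50 FPKM in H24h. Its N values, 236, 7.23 and 68.5 FPKM, spanned those of H24h. Without H12h replicate 3, edgeR called 1049 genes between H24h and H12h.

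**Figure D5:**
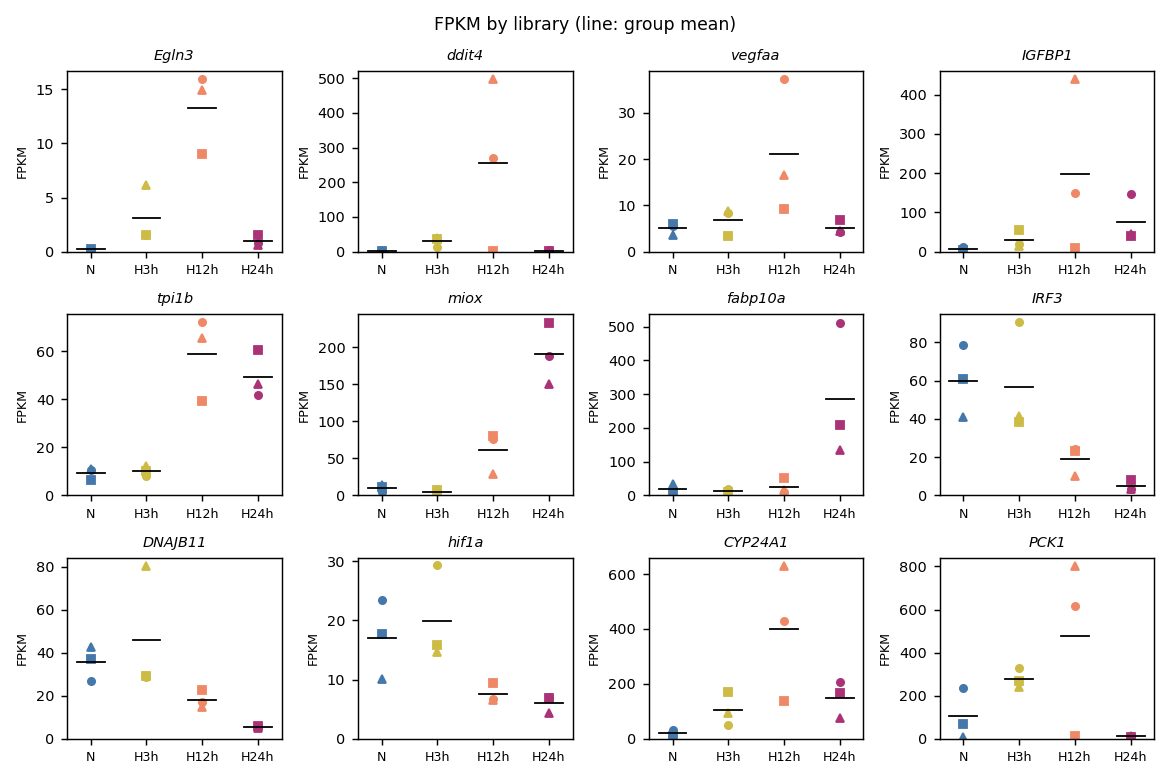
FPKM of 12 genes in each N, H3h, H12h and H24h library, with 1 symbol shape per replicate and a line at the group mean. Egln3, ddit4, vegfaa and PCK1 reach their highest values in H12h libraries and lie below these in H24h, while miox and fabp10a reach theirs in H24h, up to 233 and 512 FPKM. IGFBP1, CYP24A1 and tpi1b also reach their highest values in H12h, up to 439, 629 and 72.2 FPKM. In H24h these 3 genes reach 146, 207 and 60.6 FPKM. Set against N, Egln3 (110505778) is higher in H24h without overlap and vegfaa overlaps.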

How the data were processed

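The authors deposited 1 table with raw counts and FPKM per gene for 15 libraries. The labels' protocols give Trizol extraction and Illumina libraries, and Bowtie2 2.2.8 and TopHat2 2.1.1 are named per the submitters' processing notes. What the authors used for counting, strandedness, genome build and annotation was not given in the sources used here. Coordinates are as deposited. Deposited counts were tested with edgeR 4.0.16 (R 4.3.3; TMM scaling, quasi-likelihood test) on the 6 libraries compared, over 17502 of 34965 genes with a mean of at least 0.5 FPKM over all libraries. Deposited FPKM values are printed as levels, with no TMM scaling added. Calls had a Benjamini-Hochberg adjusted p under 0.05. The procedure was tested on simulated data. Alternatives used DESeq2 1.42.0 and limma 3.58.1, other filters and spreads, and left-out libraries. The fits with the gene length trend removed and with single libraries left out of the 12-library fit were chosen after seeing the data. The 12-library fit was planned as an alternative, but giving its calls as a result of their own was not planned.

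Genes were named by rule: up to 6 per direction by smallest p among named genes with a mean of at least 5 FPKM in the higher group and no overlap, the 3 members of smallest p in each of 58 gene lists (12 of cell type markers), and the most expressed copy of preset hypoxia, glucose and globin genes; of these, those that show each list are printed, and a few genes are not reported here. The comparison, the lists and the rule were chosen with earlier results of these data known. The 12-library fit holds the libraries in which genes were picked for small p. For those genes, passing it is not independent evidence. The skeletal muscle list reached the test with MYH9 copies alone, which are not muscle-specific, and is not used.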

Additional observations from a re-analysis of the deposited data

Results flagged for a closer look

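Some genes named for the comparison with N, or as preset genes, also differed between H24h and an earlier H group in a direct edgeR test on 6 libraries. The H24h libraries in that test were also those used to choose the genes named for the comparison with N. The causes of these differences were not tested.

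Against H3h the log2 differences of genes higher in H24h were 5.82 for miox, 2.67 for bbip1, 2.41 for hba4, 2.12 for rsl24d1, 1.99 for pno1 and 1.98 for dapl1-a. Those of genes lower in H24h were -4.11 for PCK1, -3.17 for IRF3, -3.05 for ddit4 (110531799), -2.22 for psmg2, -2.16 for EIF2AK2, -2.13 for Irf8, -1.47 for CNP and -1.31 for hif1a. This ddit4 copy and PCK1 overlapped between H24h and N while all 3 of their H24h libraries lay below every H3h library. A second ddit4 copy (110530482) stood at 1.06, 0.78 and 0.23 FPKM in N and at 1.65, 2.27 and 12.5 FPKM in H24h. It was higher in H24h than in N without overlap (log2 fold change 3.2 ± 0.85, edgeR adjusted p of 0.096). Against H12h the 1 difference was that of TBX3, at least 325-fold higher in H24h. Its counts also ran from 0 or near 0 to high values within N, H3h and R3h. With 3 libraries a group, Dixon's test for an outlying library was not run.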

How the results depend on the processing

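Between H24h and N, edgeR called 0 genes with DESeq2 size factors, without a filter on low values, with the gene length trend removed and with the replicate block. It called 32 at a mean of at least 2 FPKM, 35 with the spread of 15 libraries and 871 with that of 12; limma on log2(FPKM + 1) called 59, DESeq2 2459 and limma-voom with library weights 7381. Leaving out 1 library gave 0 to 1957 calls, the highest without N replicate 2; in the 12-library fit it gave 0 to 2410, and 702 with the length trend removed. Between H24h and H12h, edgeR gave 1 call, and 0 with 15 libraries, 137 with 12, 35 at 2 FPKM and 373 without a filter; limma gave 63, DESeq2 1444 and limma-voom 3033; leaving out 1 library gave 0 to 1049. Between H24h and H3h the 3242 calls became 782 with 15 libraries and 5454 with limma-voom, and 248 to 3059 with 1 library left out.

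The replicate numbers pair the libraries by number alone: deviations from the group means of same-numbered N and H24h libraries correlated at -0.16, 0.10 and 0.17. With the replicate block edgeR called 0 genes against N, 2 against H12h and 1740 against H3h.

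Of 167 named genes, the log2 fold change turned sign in 5 of 2639 gene and setting pairs: insig1 (110501691) was 0.83 with limma-voom, G6PC (110499065) -0.27 with limma on FPKM and -0.26 to 0.49 with 1 library left out, the lowest without H24h replicate 2, and FKBP5 0.28 with the block and -0.74 to 0.78 with 1 library left out, the highest without N replicate 1. List medians moved by at least the spread between libraries in 114 of 927 list and setting pairs. At these depths 24175 to 26212 genes had at least 10 counts in each N and H24h library.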

Other observations

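Further lists were also compared between H24h and N. Microtubule genes had negative log2 fold changes in 17 of 18 tested, with a median of -0.57, -0.69 without N replicate 2, and 4 lower and 0 higher at an unadjusted p under 0.05 in edgeR. DNA replication and cell cycle genes had a median of 0.15 over 26 tested, with 15 positive and 11 negative, and -0.15 without H24h replicate 3; 4 were lower and 1 higher at that level, beside 13.5% lower over all genes. Lying below that median, the replicative helicase genes mcm2 and mcm4 had log2 fold changes of -1.79 ± 0.41 and -1.35 ± 0.32. Autophagy and mitophagy genes gave 18 higher and 6 lower of 57 tested. In that list both ATG9A copies, whose protein supplies membrane to autophagosomes, were low (-2.26 ± 0.37 and -1.68 ± 0.29). GABARAPL1, an autophagosome coat protein gene, was at 1.61 ± 0.33. The list median of 0.27 was -0.05 on the FPKM scale, beside -0.22 over all genes.

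The growth hormone receptor gene GHR stood at 31.9, 11.6 and 17.3 FPKM in N and at 7.74, 3.70 and 4.91 FPKM in H24h, without overlap. A pair of krt18 copies, an epithelial keratin gene, lay on opposite sides: 110523931 had a log2 fold change of -1.53 ± 0.35 and 100136778 one of 1.31 ± 0.35. The egg envelope protein gene ZP3, made by the liver under oestrogen in trout, ranged from 13.2 to 111 FPKM in N and from 60.0 to 374 FPKM in H24h, which overlap.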
